A study of Mus musculus with 17 samples.

Results

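Cacna1g, Cacna1h and Cacna1i encode the pore-forming subunits of the T-type calcium channels. They were taken by gene symbol from the single-cell and the spot table, and each symbol had 1 row in both. In RefSeq's annotation of GRCm38.p6, Cacna1g lies on chromosome 11 (94408391 to 94474400), Cacna1h on chromosome 17 (25374285 to 25436334) and Cacna1i on chromosome 15 (80287238 to 80398292). They are 3 of 52636 genes in the single-cell table and 3 of 28692 genes in the spot table. T-type channels open at potentials near rest and are de-inactivated by hyperpolarization, so that a neuron released from inhibition fires a low-threshold calcium spike crowned by a burst of action potentials. Thalamic relay neurons and the GABA neurons of the reticular thalamic nucleus are the classical sites of this firing mode. In the rodent brain Cacna1g is known as the T-type gene of relay neurons, and Cacna1h and Cacna1i as those of the reticular nucleus.

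Single cells were dissected from the anterior thalamic nuclei in acute slices of wild-type B6 mice and picked by hand (14 labelled samples). The spatial data come from frozen wild-type brain cut at 10 µm on Visium slides, with 1 section at the anterior level of these nuclei (section 5) and 2 at the posterior level (sections 2 and 6). No group carried an allele or a treatment, and no age is used here. A neuron here is a well with an animal number and at least 1000 genes with a count. Of 912 such wells, 8 were left out because the date in their source name was mostly used by wells of another animal. Another 27 formed a cluster with oligodendrocyte markers. The remaining 877 neurons came from 3 animals (101, 317 and 459), which serve as the replicates. Cells and spots were grouped without the 3 genes, so these genes did not define any cluster or region.

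Depth differed between animals. Cells of animals 1, 2 and 3 had medians of 49798, 8845 and 50474 counts. The vesicular glutamate transporter gene Slc17a6, a marker of thalamic relay neurons, had a count in 95.3%, 90.8%, 92.2% and 100% of the neurons of clusters 1 to 4. At least 3 markers of GABA neurons were carried by 7 neurons, 6 of them in cluster 3 and 1 in cluster 2. The median count per spot was 8990.5 in section 2, 5313 in section 5 and 7210 in section 6. Of the spot barcodes, 2393 occur in more than 1 section because all slides carry the same printed array. The labels do not say whether the sections come from separate animals, so p-values over sections measure only the spread between these sections. Levels are given as CPM, a gene's count scaled by the total count of the cells or spots summed, with no correction for transcript length, and are compared between groups for 1 gene at a time.

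Cacna1g was detected in most anterior thalamic neurons. Its level was 370 CPM in animal 1, 223 in animal 2 and 247 in animal 3, with a mean of 280 ± 79.3 CPM (SD, n = 3 animals). Animal 1 stood highest and the other animals lay close together. A count was present in 77.2%, 65.9% and 84.5% of the neurons of animals 1, 2 and 3. That order follows the depth of the cells. When every neuron was thinned to 5000 counts, leaving out the 0, 59 and 2 shallower ones, the shares were 55.2%, 51.7% and 57.1% (54.7 ± 2.70%). The median neuron held 204, 156 and 198 CPM in the 3 animals, and the highest neuron 4200, 3189 and 2754 CPM.

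Cacna1h and Cacna1i were rare in the same neurons. Cacna1h had no count in animal 1, where 3 counts would have given 0.494 CPM, and stood at 1.61 CPM in animal 2 and 3.17 CPM in animal 3. All 96 counts came from 27 neurons, 18 of which had a single count. The 5 neurons with at least 5 counts held 68.8% of them. All 5 belonged to cluster 3 of animal 3, and 2 of them had no Cacna1g count. One of the 5 carried 5 GABA markers and another carried 7 oligodendrocyte markers, and the part of such cells in the Cacna1h signal was not tested.

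Cacna1i stood at 19.4 CPM in animal 1, 4.18 in animal 2 and 5.02 in animal 3, a spread as wide as the mean (9.54 ± 8.56 CPM). Its 275 counts came from 34 neurons. The 13 neurons with at least 5 counts held 88.4% of them, and 1 neuron of animal 1 alone held 76. Thinned to 5000 counts, Cacna1i was present in 1.79 ± 0.451% of neurons and Cacna1h in 0.489 ± 0.549%.

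Control wells held few counts of the 3 genes. The 56 wells with spike-in RNA and no cell (median 152.5 counts) held 5 counts of Cacna1g, 0 of Cacna1h and 1 of Cacna1i in all, which is 63.0, 0 and 12.6 CPM. The 56 wells with control RNA (median 25060.5 counts) held 20, 2 and 0, or 4.58, 0.458 and 0 CPM, and the 16 blank wells held none. The 304 wells with an animal number and under 1000 genes (median 19 counts) held 17 counts of Cacna1g, or 211 CPM, and none of the other genes. Oligodendrocyte-like cells, which should lack the relay neuron program, still held Cacna1g at 127 ± 42.6 CPM and in 26.9 ± 5.83% of cells after thinning. Slc17a6 was present in 44.4% of these cells at a pooled 393 CPM, less than in any neuron cluster. Their median count of 25264 was near that of clusters 1 and 2, and the source of neuronal counts in them was not tested.

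The neurons fell into 4 clusters of 408, 238, 192 and 39 cells. Cluster 1 was led by Itga4, Car4, Gdf11, Ccdc141 and Gjc1. Cluster 2 was led by Cacng4, Ramp3, Gm43831, Tmem132c and Rreb1, and cluster 3 by Sst, Gad2, Gad1, Necab1 and Plcxd3. Of the 192 neurons of cluster 3, 92.2% had a count of Slc17a6 and 6 carried at least 3 GABA markers. Those 6 and the 1 such neuron of cluster 2 together held 32 counts of Cacna1g, 18 of Cacna1h and 2 of Cacna1i. Cluster 3 as a whole held 2341, 80 and 58, and no fit left out those 6 alone. Cluster 4 was led by C1ql2, Padi1, Gulo and Chrm1. All 4 clusters occurred in all 3 animals, with 6, 9 and 24 cells of cluster 4.

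Cacna1g divided the clusters into high, middle and low. In cluster 2 it stood at 789, 435 and 470 CPM in animals 1, 2 and 3. In cluster 1 the values were 353, 183 and 220 CPM, and in cluster 3 they were 307, 187 and 209 CPM. In cluster 4 they were only 44.1, 55.8 and 76.6 CPM. Every animal had its highest level in cluster 2 and its lowest in cluster 4. The cluster 2 and cluster 4 values did not overlap those of any other neuron cluster, while those of clusters 1 and 3 overlapped fully.

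**Figure D1:**
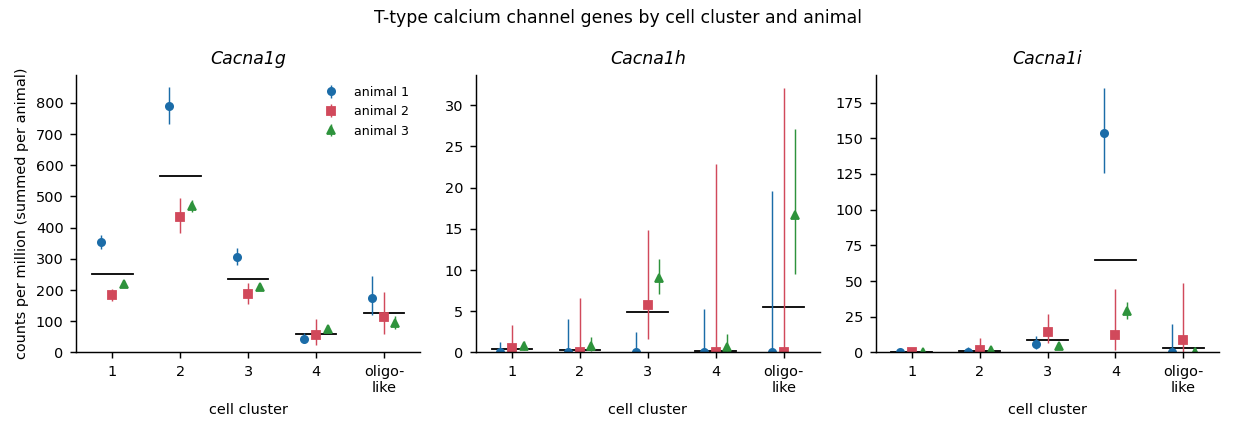
CPM of Cacna1g, Cacna1h and Cacna1i (separate linear axes) in the 4 neuron clusters and the oligodendrocyte-like cells, with 1 point per animal, its 95% Poisson interval for counting error, and a bar at the mean of the animals. Cacna1g lies between 435 and 789 CPM in cluster 2 and between 44.1 and 76.6 CPM in cluster 4, where Cacna1i is highest in 2 of the 3 animals.

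Set against the mean of the other neuron clusters, Cacna1g was 3.80-fold higher in cluster 2 (log2 fold change 1.93 ± 0.21 SE, adjusted p = 3.26e-05, edgeR quasi-likelihood test on sums per animal). In that comparison 11.9% of all 11896 genes tested passed the same threshold, an adjusted p of 0.05. Cacna1g was 4.96-fold lower in cluster 4 (log2 fold change -2.31 ± 0.27, adjusted p = 5.84e-05), where 13.3% of all genes passed and the median gene shifted by -0.21. It did not pass in cluster 1 (0.27 ± 0.22) or cluster 3 (0.12 ± 0.22), where 1.29% and 1.69% of genes passed.

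Pairs of clusters gave the same order. Clusters 1 and 2 differed by -1.24 ± 0.27 (adjusted p = 0.0271, 1.73% of genes passing), and clusters 2 and 3 by 1.36 ± 0.27 (adjusted p = 0.0100, 4.37% passing). Cluster 4 lay below cluster 1 by 1.94 ± 0.30 (adjusted p = 0.00111, 6.8% passing) and below cluster 3 by 1.82 ± 0.30 (adjusted p = 0.00219, 4.86% passing). The widest gap was between clusters 2 and 4, at 3.18 ± 0.31 or 9.05-fold (adjusted p = 7.61e-06, 18.2% passing). Clusters 1 and 3 differed by 0.11, with a 95% interval of -0.41 to 0.63, in a pair where 1.3% of genes passed.

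Detection at equal depth showed the same order in the means over animals, but not in animal 1. There the thinned share was 57.5% in cluster 2 and 60.0% in cluster 1. Thinned to 5000 counts, Cacna1g was present in 69.8 ± 10.6% of cluster 2 neurons, 52.4 ± 7.01% of cluster 1, 50.4 ± 3.27% of cluster 3 and 17.6 ± 7.52% of cluster 4. The mean share in cluster 4 was below the 26.9% of the oligodendrocyte-like cells, though in animal 3 it was above theirs (24.7% against 21.4%). Cluster 4 held the deepest libraries, with a median of 121250 counts against 26763, 21093.5 and 41703.5 in clusters 1, 2 and 3. Its Slc17a6 level of 816 ± 54.6 CPM lay beside 858 ± 40.7 in cluster 1. Tcf7l2, which encodes a transcription factor of the thalamus, stood lowest in cluster 4, at 475 ± 142 CPM against 703 ± 58.9, 1049 ± 67.8 and 752 ± 118 in clusters 1 to 3. The mean log2 ratio to the remaining cells over 11 markers of glutamatergic thalamic neurons was -0.38, 0.56, 0.14 and -1.44 in clusters 1 to 4, so it was highest in cluster 2 and lowest in cluster 4, as Cacna1g was. The part of these markers in the Cacna1g result was not tested. In animal 1 all 31 Cacna1g counts of cluster 4 came from 1 of its 6 neurons. In cluster 2 of that animal, 1 of 20 neurons held 22.2% of the 711 counts. The median share of mitochondrial counts was 3.21%, 4.28%, 1.98% and 2.36% in clusters 1 to 4. Neurons with at least 3 markers of another cell type numbered 12, 7, 12 and 2. Without them the Cacna1g values were 1.90 in cluster 2 and -2.31 in cluster 4.

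Cacna1i had its highest mean in cluster 4, where Cacna1g was lowest. It stood there at 154 CPM in animal 1, 12.4 in animal 2 and 29.0 in animal 3, from 108, 2 and 93 counts. In cluster 3 it stood at 5.99, 14.5 and 4.65 CPM, and in clusters 1 and 2 at no more than 1.89 CPM in any animal. Cluster 4 was highest in animals 1 and 3, while in animal 2 its value lay below that of cluster 3. Of the 39 neurons of cluster 4, 14 (35.9%) had a Cacna1i count and together they held 203 of the 275 counts. Against the mean of the other clusters the log2 fold change was 5.28 ± 0.83 (adjusted p = 0.000547). It was 4.18 without animal 1 and 5.97 without animal 2, and it passed in both cases. The size of this change rests on clusters with 3, 11 and 58 counts in all.

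Between neighbours in that order the difference was less certain. Clusters 3 and 4 differed by -2.83 ± 1.12 in Cacna1i (adjusted p = 0.189), with a 95% interval of -5.02 to -0.64. The difference from cluster 4 was -7.92 ± 1.33 in cluster 1 (adjusted p = 0.00199) and -5.08 ± 1.21 in cluster 2 (adjusted p = 0.00859). Cluster 1 lay below the other clusters (-5.28 ± 1.18, adjusted p = 0.0388), a call lost without animal 2 or animal 3. Clusters 2 (-1.50 ± 1.10) and 3 (1.51 ± 0.83) did not pass against the others.

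Cacna1h was too sparse in the cells for the test and was removed by the filter on low counts. Of its 96 counts, 80 lay in cluster 3, at 0, 5.80 and 9.06 CPM in animals 1, 2 and 3. The other clusters held 10, 4 and 2 counts. A single oligodendrocyte-like cell held 16 counts.

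The make-up of the T-type counts therefore differed by cluster. Cacna1g made up 99.7 ± 0.167% of the counts of the 3 genes in cluster 1, 99.7 ± 0.290% in cluster 2, 94.0 ± 3.94% in cluster 3 and 58.8 ± 31.9% in cluster 4. Cacna1i made up 41.1 ± 32.1% in cluster 4, a share that varied widely between animals. These shares are of counts and carry the lengths of the transcripts with them, so they are compared between clusters only.

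Of 877 neurons, 632 had a count of Cacna1g alone and 186 had none of the 3 genes. Cacna1g occurred with Cacna1i in 24 neurons and with Cacna1h in 18, and 1 neuron had all 3. Cacna1i alone was seen in 8 neurons, Cacna1h alone in 7, and both without Cacna1g in 1. Most neurons with a rarer T-type transcript thus also held Cacna1g, as most neurons did.

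Thinned to 5000 counts, the share of neurons with both Cacna1g and Cacna1i was 0.872%, 0.988% and 0.616% in animals 1, 2 and 3. The products of the separate shares were 1.25%, 0.901% and 0.775%, so the ratios were 0.701, 1.10 and 0.795. Animals 1 and 3 lay below 1 and animal 2 above it, which gives no common direction at this depth. Thinned to 10000 counts, the ratios were 0.784, 0.869 and 0.803, all below 1. The side of 1 on which animal 2 fell thus changed between the settings. Its neurons also went from 258 to 127, so depth and the set of neurons changed together. Cacna1g and Cacna1h had ratios of 0.447 in animal 2 and 0.644 in animal 3, from 2 and 25 neurons with Cacna1h as deposited. Cacna1h and Cacna1i were together in 2 neurons. Each ratio was taken over all neuron clusters of an animal together, and the part of cluster make-up in it was not tested. In sparse counts these ratios are a description and no test was made.

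**Figure D2:**
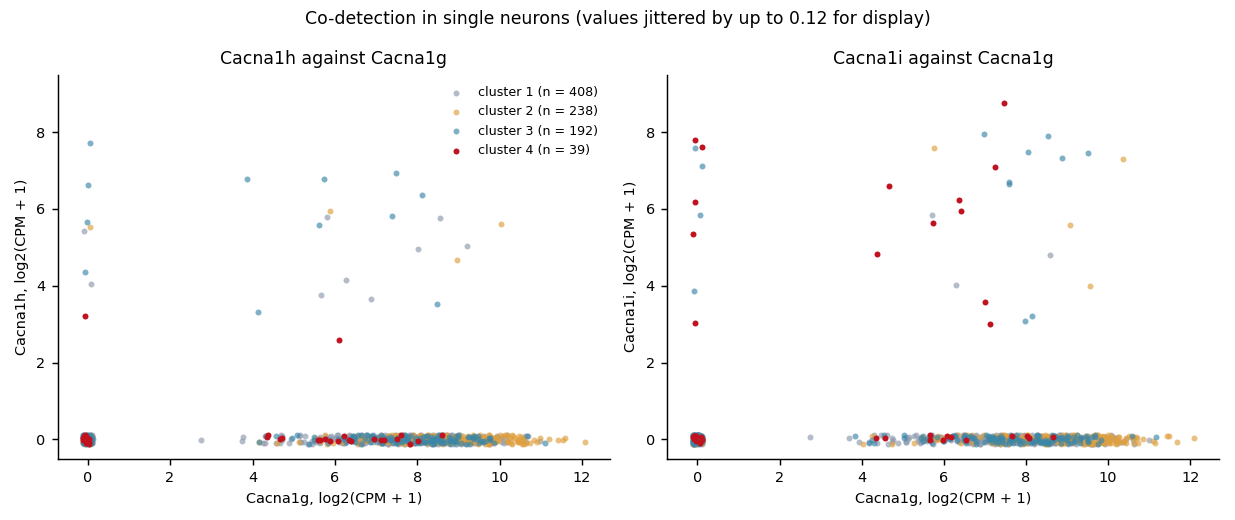
Each point is 1 of 877 neurons, with Cacna1g on the horizontal axis and Cacna1h (left) or Cacna1i (right) on the vertical axis, both as log2(CPM + 1) with a small jitter for display. Most neurons lie along the Cacna1g axis with neither rarer gene, and the points with Cacna1i include 14 of the 39 neurons of cluster 4.

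Within cluster 4 the 2 genes were not exclusive. Of its 14 neurons with Cacna1i, 9 also had Cacna1g, and of its 25 neurons without Cacna1i, 12 had Cacna1g. Another 12 neurons of this cluster had none of the 3 genes. The neuron with the most Cacna1i (76 counts) also held 31 counts of Cacna1g. The neurons with 35 and 29 counts of Cacna1i held none.

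The sections show the 3 genes across the brain around these nuclei. Spots fell into 12 regions. Each spot covers several cells, so fewer cells of a type and less RNA per cell cannot be told apart. Region 7 (658 spots) had the highest score for markers of glutamatergic thalamic neurons and was led by Shox2, Gbx2, Lhx9, Slitrk6 and Tcf7l2. Region 11 (221 spots) was led by Six3, Ret, Pvalb, Isl1 and Fign, with Gad1 at 1575 ± 245 CPM, and carried the markers of the reticular thalamic nucleus. Region 3 was led by the striatal genes Sh3rf2, Cd4, Adora2a and Gpr6, and region 4 by Gm11549, Tmem215, Vip and Lamp5.

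Cacna1g was highest in the thalamic region. There it stood at 124 CPM in section 2, 160 in section 5 and 146 in section 6, from 251, 158 and 251 counts. The next region, region 4, had 47.8, 64.3 and 61.3 CPM, and region 3 the least, with 4.34, 12.1 and 6.51 CPM. No section of any other region reached the lowest thalamic value. Cacna1g was 5.32-fold higher in the thalamic region than in the mean of the other regions (log2 fold change 2.41 ± 0.10, adjusted p = 1.56e-28), where 31.0% of 12979 genes passed. The difference of region 4 from it was -1.23 ± 0.12 (adjusted p = 7.81e-13, 37.9% of genes passing). The thalamic region held 25.3%, 23.4% and 28.1% of all Cacna1g counts in sections 2, 5 and 6, against 7.80%, 7.15% and 9.23% of all counts.

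Cacna1h was low in the thalamic region and high in the striatal one. It stood at 3.45, 9.13 and 8.16 CPM in the thalamic region (30 counts in all) and at 44.7, 72.2 and 66.5 CPM in region 3. These values did not overlap. The thalamic region lay below the other regions (log2 fold change -1.43 ± 0.25, adjusted p = 2.78e-06) and region 3 above them (2.19 ± 0.12, adjusted p = 2.02e-24, 45.2% of genes passing). Region 12 was large enough in section 6 only and held 63.9 CPM there, with no test. The reticular region had 14.6, 12.5 and 22.9 CPM of Cacna1h, within the range of most regions (0.18 ± 0.31, adjusted p = 0.764).

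Cacna1i had its highest mean in the reticular region, at 43.8, 72.1 and 96.4 CPM in sections 2, 5 and 6 (70.8 ± 26.4 CPM) from 18, 23 and 59 counts. It was 2.77-fold above the other regions there (log2 fold change 1.47 ± 0.20, adjusted p = 1.74e-08, 18.2% of genes passing). Region 4, with 60.4, 71.3 and 59.3 CPM, and region 3, with 51.5, 59.6 and 57.6 CPM, overlapped it. In section 2 both stood above the reticular region. Regions 4 and 11 differed by -0.18 ± 0.19 (adjusted p = 0.518), in a pair where 30.5% of genes passed. The thalamic region had 16.3, 16.2 and 12.8 CPM and lay below the others (-1.09 ± 0.19, adjusted p = 2.60e-06). Section 2 had the lowest reticular value and the smallest reticular region, with 49 spots against 69 and 103.

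**Figure D3:**
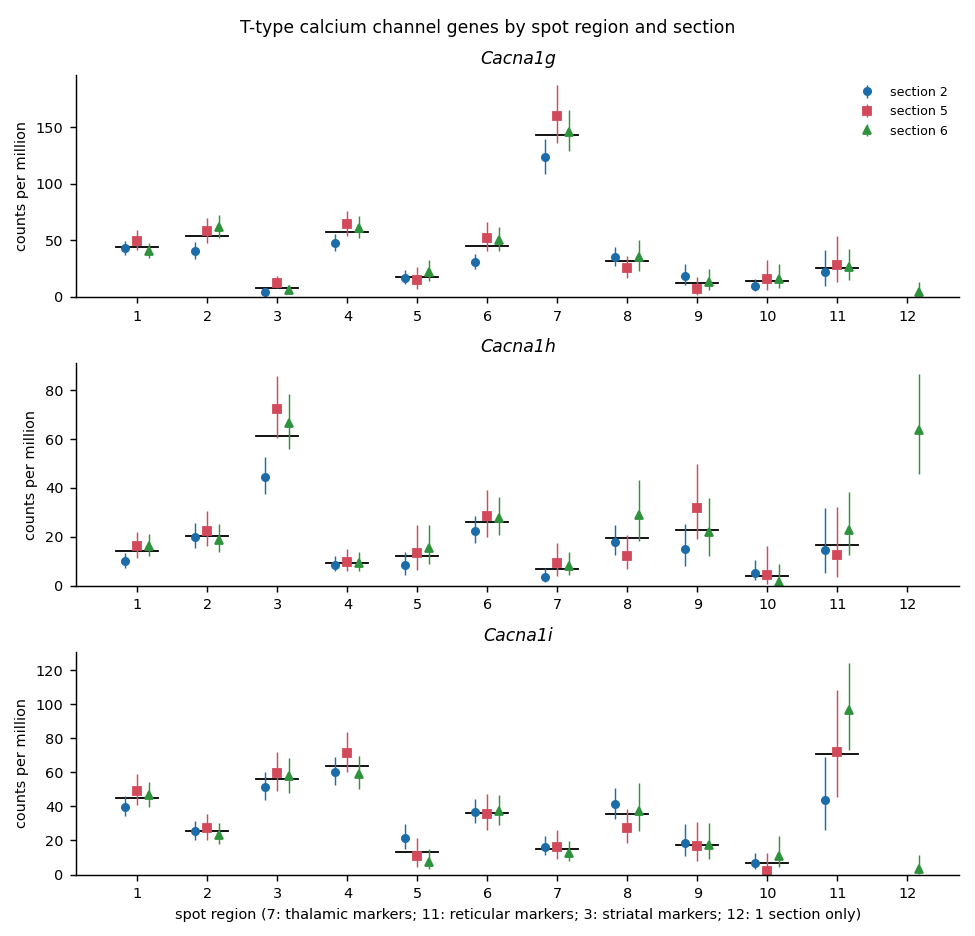
CPM of the 3 genes in the 12 spot regions, with 1 point per section, its 95% Poisson interval and a bar at the mean of the sections. Cacna1g peaks in thalamic region 7 (124 to 160 CPM), Cacna1h in striatal region 3 and in region 12 of 1 section, and Cacna1i in reticular region 11 beside regions 3 and 4.

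Over all 11 regions tested, Cacna1g rose in regions 1, 2, 4, 6 and 7 and fell in regions 3, 5, 9 and 10. Cacna1h rose in regions 2, 3 and 6 and fell in regions 4, 7 and 10. Cacna1i rose in regions 1, 3, 4, 6, 8 and 11 and fell in regions 5, 7, 9 and 10. Such calls were common among all genes: 43.5%, 36.4%, 47.3%, 45.0% and 40.8% passed in regions 1, 2, 4, 5 and 6, and 25.9%, 20.8% and 53.8% in regions 8, 9 and 10. The Cacna1g value of region 6, 0.56 on the log2 scale, turned to -0.14 with count splitting. The rises of Cacna1h in region 2 and of Cacna1i in regions 6 and 8 were each lost under DESeq2 and without a section block.

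Few steps in the order of the regions exceeded the spread between sections. The order came from the mean levels in these same sections, so neighbours are the closest pairs by construction. A low number of passes among them therefore says little about regions further apart. Of 10 pairs of neighbouring regions, 1 passed for Cacna1g, which is the step from region 7 to region 4. For Cacna1h it was the step from region 3 (61.1 CPM) to region 6 (26.3 CPM), at 1.25 ± 0.15 (adjusted p = 6.65e-10, 31.0% of genes passing). For Cacna1i 3 of 10 passed. They were the steps from region 3 to region 1 (adjusted p = 0.0314, 37.0% of genes), from region 8 to region 2 (adjusted p = 0.00614, 36.5%) and from region 5 to region 10 (adjusted p = 0.0395, 39.3%).

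The thalamic region was divided again into subregions of 288, 189, 132, 41 and 8 spots, the last too small to test. Subregion 1 was led by Calca, Cnih3, Cbln1, Nexn and Epha8, and subregion 2 by Plxnc1, Foxp2, Necab1, Htr2c and Itih3. Subregion 3, present in sections 5 and 6 only, was led by Oxt, Avp, Plxnc1, Necab1 and Ldb2. Subregion 4 was led by Stk32b, C1ql2, Chrm1, Rspo3 and Syt2. C1ql2 and Chrm1 also lead cell cluster 4. C1ql2 stood at 470 ± 33.1 CPM in subregion 4 and at 1213 ± 237 CPM in cluster 4.

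Cacna1g was low in the C1ql2 spots as in the C1ql2 cells. In subregion 4 it stood at 36.6 CPM in section 2, 111 in section 5 and 40.7 in section 6, from 5, 14 and 7 counts in 10, 16 and 15 spots. In subregions 1 to 3 it lay between 125 and 172 CPM in every section. Among these 4 subregions all 3 sections had their lowest value in subregion 4, without overlap, and section 5 came nearest to the rest. The untested subregion 5 had no count in 2 spots of section 5 and 48.4 CPM from 3 counts in 6 spots of section 6. The log2 fold change against the other subregions was -1.36 ± 0.26, or 2.57-fold lower (adjusted p = 1.63e-05, 11.9% of 7922 genes passing). Without section 5 it was -1.95 and still passed. Subregion 4 lay below subregion 1 by 1.40 ± 0.27 (adjusted p = 3.44e-05, 11.2% of genes passing), below subregion 2 by 1.33 ± 0.29 (adjusted p = 0.000245, 9.35%) and below subregion 3 by 1.36 ± 0.30 (adjusted p = 0.000293, 10.9%). Its Slc17a6 level of 492 ± 24.2 CPM lay beside 512 ± 46.0 in subregion 1. Tcf7l2 was lower there, at 445 ± 78.5 CPM against 643 ± 36.6, 681 ± 81.1 and 915 ± 11.5 in subregions 1 to 3. The mean log2 ratio over the 11 thalamic markers was -0.96 in subregion 4 and 0.23, -0.03 and -0.07 in subregions 1 to 3, and their part in the result was not tested. Its spots were deeper, with medians of 13515, 7791.5 and 11529 counts against 4105 to 9771 in the first 3 subregions. Thinned to 2000 counts per spot, Cacna1g was present in 11.5 ± 6.38% of the spots of subregion 4. In subregions 1 to 3 the shares were 26.9 ± 3.09%, 25.7 ± 3.46% and 29.1 ± 1.61%, and the part of depth was not tested further.

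Cacna1i within the thalamus was sparse, with 71 counts. It stood at 22.0, 31.6 and 29.0 CPM in subregion 4, from 12 counts, and at 21.1, 37.1 and 26.8 CPM in subregion 2. In subregion 1 it was lower, at 4.90, 13.5 and 3.91 CPM, with no overlap with either. The rise in subregion 4 did not pass (1.15 ± 0.58, adjusted p = 0.209), nor did that in subregion 2 (1.13 ± 0.47, adjusted p = 0.245, 2.68% of genes passing). Subregion 1 lay below the other subregions (-1.55 ± 0.52, adjusted p = 0.0321, 11.1% of genes passing), a call lost when any 1 section was left out. Its difference from subregion 2 was -2.01 ± 0.56 (adjusted p = 0.00889, 7.49% passing), and from subregion 4 it was -2.03 ± 0.70 (adjusted p = 0.0397). Subregion 3 did not pass for either gene (5.93% of genes passing). For Cacna1g, subregion 1 stood 0.50 ± 0.15 above the others (adjusted p = 0.0173). That call was lost without section 2 or section 6, under DESeq2, without the section block and with count splitting, and the value turned to -0.0904 at resolution 0.8. Cacna1h had 30 thalamic counts and was not tested there.

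**Figure D4:**
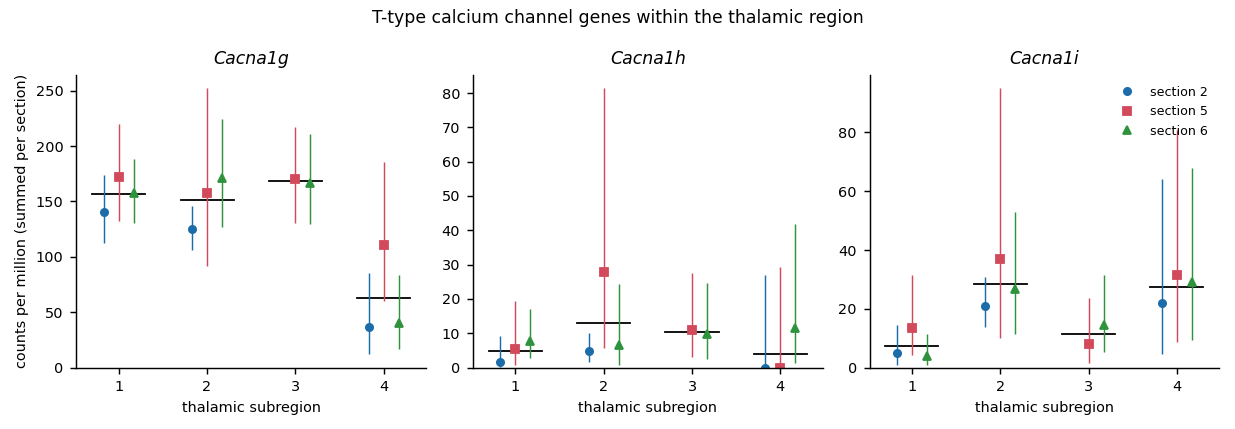
CPM of the 3 genes in the first 4 subregions of the thalamic region, with 1 point per section, its 95% Poisson interval and a bar at the mean. Cacna1g lies between 125 and 172 CPM in subregions 1 to 3 and at 36.6, 111 and 40.7 CPM in subregion 4, and the intervals of Cacna1h and Cacna1i are wide because few counts were seen.

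Between the anterior and the posterior level the thalamic values of Cacna1g and Cacna1i were close, while those of Cacna1h rest on too few counts to say. Cacna1g stood at 160 CPM at the anterior level (95% Poisson interval 136 to 187) and at 134 CPM over both posterior sections (123 to 146), a ratio of 1.20. Against the separate posterior sections the ratio was 1.30 and 1.10. Cacna1i stood at 16.2 CPM (9.28 to 26.4) and 14.7 CPM (11.1 to 19.1), and Cacna1h at 9.13 CPM (4.18 to 17.3) and 5.61 CPM (3.47 to 8.57). The Cacna1h ratio was 1.63, from 9 anterior and 21 posterior counts. It was 2.65 against section 2 and 1.12 against section 6. The intervals of each gene overlap and cover counting error only. With 1 anterior section there was no test.

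Over the 34 sums of regions and sections, the genes whose log2(CPM + 1) followed each T-type gene most closely were found among 7659 genes. For Cacna1g they were Rims3 (Pearson r = 0.82), Magi1 (0.79), Cep170b (0.78), Nr2f1 (0.77) and Flot1 (0.77). For Cacna1h they were Gm13889 (0.80), Dgkb (0.78), Smap2 (0.75), Cnr1 (0.75) and 6030419C18Rik (0.75). For Cacna1i they were Lrrc4c (0.86), Slc2a13 (0.85), Rims4 (0.85), Prkacb (0.83) and Lrrtm3 (0.81). Rims3, a presynaptic active zone protein gene, was highest in the thalamic region too, at 350 ± 42.8 CPM, followed by 225 ± 29.9 in region 4. Among themselves the T-type genes had r = -0.41 (Cacna1g and Cacna1h), 0.23 (Cacna1g and Cacna1i) and 0.30 (Cacna1h and Cacna1i). The sums share sections and depth, so these values describe the pattern over regions and carry no test.

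Genes with known roles beside T-type channels in thalamic burst firing were listed from HCN pacemaker channels, calcium-activated and A-type potassium channels, leak channels and calcium handling. These genes were open to the clustering, so their counts over clusters are a description. In cluster 2, where Cacna1g was highest, 6 of the 20 measured genes rose and 1 fell, where 6.46% of all genes tested rose and 5.48% fell. Their median log2 fold change was 0.50, against 0.09 over all genes. Kcnma1, the BK channel, rose by 0.75 ± 0.14 (adjusted p = 0.00278) and Plcb4, a phospholipase that links metabotropic receptors to relay neuron firing, by 0.94 ± 0.19 (adjusted p = 0.00424). Kcnd2, an A-type potassium channel, rose by 0.78 ± 0.20 (adjusted p = 0.0175) and Kcnk3, a leak channel, by 1.50 ± 0.40 (adjusted p = 0.0221).

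In cluster 4, where Cacna1g was lowest, 8 of the 20 fell and 1 rose, where 6.81% of all genes tested fell and 6.52% rose. Their median was -0.98, against -0.21 over all genes. Itpr1, the calcium release channel of the endoplasmic reticulum, fell by 3.72 on the log2 scale (SE 0.49, adjusted p = 0.000133). Kcnd2 (-1.16 ± 0.23, adjusted p = 0.00309) and Plcb4 (-1.06 ± 0.22, adjusted p = 0.00459) fell as well. In subregion 4 of the sections 3 of 17 measured genes rose and 5 fell, where 6.44% of all genes rose and 5.48% fell, with a median of -0.31 against -0.01 over all genes. Hcn2, a pacemaker channel gene, rose there by 0.76 ± 0.17 (adjusted p = 0.000447). Itpr1 (-2.56 ± 0.30, adjusted p = 1.13e-12) and Plcb4 (-0.90 ± 0.19, adjusted p = 0.000114) fell in the C1ql2 spots too.

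Over the whole thalamic region, 12 of 21 measured genes of the burst list rose and 4 fell, where 2211 and 1810 of 12979 genes did, with a median of 0.47 against -0.01 over all genes. Kcnip4, an A-type channel partner, rose by 1.93 ± 0.09 (adjusted p = 9.81e-28), Plcb4 by 1.92 ± 0.09 (adjusted p = 1.94e-26) and Kcnd2 by 0.98 ± 0.08 (adjusted p = 1.48e-16). Ryr2 fell by 2.14 (SE 0.19, adjusted p = 2.27e-14). In the reticular region 7 rose and 8 fell, where 9.69% of all genes rose and 8.46% fell. Kcnip1 rose by 2.57 ± 0.16 (adjusted p = 1.72e-20), Hcn2 by 1.13 ± 0.11 (adjusted p = 4.39e-13) and Kcnn2, the SK channel of reticular burst rhythms, by 1.41 ± 0.19 (adjusted p = 2.49e-08).

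Among 18 measured genes whose products bind or regulate T-type channels, 3 rose and 2 fell in cluster 2, and 1 rose and 5 fell in cluster 4, where 11.9% and 13.3% of all genes passed in either direction. The kinase gene Camk2a was higher in cluster 2 (2.41 ± 0.36, adjusted p = 0.00053) and lower in cluster 4 (-4.00 ± 0.56, adjusted p = 0.000196). In the thalamic region 4 rose and 4 fell, where 31.0% of all genes passed in either direction. Of the other pore subunits of voltage-gated calcium channels, 1 of 5 rose in cluster 2 and 2 of 5 fell in cluster 4, counts too small to set against those shares. The P/Q-type gene Cacna1a rose in cluster 2 (1.16 ± 0.16, adjusted p = 0.000334) and fell in cluster 4 (-0.85 ± 0.19, adjusted p = 0.00676). The L-type gene Cacna1c rose in the thalamic region (1.39 ± 0.10, adjusted p = 3.96e-18), where 3 of 6 pore genes rose and Cacna1e fell (-0.93 ± 0.13, adjusted p = 4.58e-08).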

How the data were processed

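The single-cell table holds counts per gene and well as deposited, and the spot table holds counts per gene and spot as deposited. The submitters' processing notes name Space Ranger and Seurat, and as builds mm10 (sections) and NCBIM37 (cells and sections). The aligner, the counting step and whether molecules or reads were counted are not given in the sources used here. The deposited well table gives animal numbers and the deposited spot list gives sections (other unit), per the file headers.

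No name ties the 14 single-cell samples of the labels to the 14 plates, so the animal of the well table was the replicate. This departs from a reading of 1 GEO sample as 1 replicate. Rows that name no gene (spike-ins and reporters) held 44.1% of the counts in kept wells and were left out. Plates of 1 animal gave between 169 and 242 CPM (animal 2) and between 190 and 308 CPM (animal 3) of Cacna1g.

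Cells and spots were grouped without the 3 genes (scanpy 1.11.5, 2000 variable genes, 30 components, 15 neighbours, Leiden resolution 0.5). No doublet caller was run on hand-picked cells. Sums with at least 5 cells or spots entered edgeR 4.0.16 (quasi-likelihood test, TMM, filterByExpr, animal or section as a block, Benjamini-Hochberg over all genes). The block comes from sums that share an animal or section. Their residuals had a median correlation of 0.0687 (cells), 0.167 (regions) and 0.0715 (subregions), against -0.0429, -0.0977 and -0.0370 otherwise. Intervals are exact Poisson or normal at 95%. The script was tested on simulated data. Alternatives were DESeq2 1.42.0, its size factors, no filter, no block, each replicate left out, resolution 0.8, count splitting, a 2000-gene minimum and 10000 counts for thinning. One more, without neurons carrying 3 markers of another type, was added after the data were seen.

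The members and lists were chosen with earlier results of these data known. Genes were named as the members, in each list up to 4 genes of lowest adjusted p, the 5 most correlated genes, and as leading genes the 5 with the highest fold among those passing with at least 50 CPM. Some of the genes chosen so are not reported here.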

Additional observations from a re-analysis of the deposited data

How the results depend on the processing

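The higher Cacna1g of cluster 2 (log2 1.65 to 2.17), the lower Cacna1g (-2.88 to -1.80) and higher Cacna1i (4.18 to 6.18) of cluster 4, the Cacna1g of the thalamic region (2.31 to 2.49) and of subregion 4 (-1.95 to -0.95) and the Cacna1i of the reticular region (1.04 to 1.83) kept direction and call in every alternative that gave a value. The lower Cacna1i of cluster 1 ended its call without replicate 2 or 3 (range with 1 animal left out -5.38 to -4.95), at resolution 0.8 (-3.95), with count splitting (-2.70) and with the 2000-gene minimum (-3.64). Cacna1i of cluster 2 passed with count splitting (-6.21) and with that minimum (-4.86). In subregion 1, Cacna1g no longer passed under DESeq2 (0.49), without the replicate block (0.47), without section 2 or 6 (0.42 to 0.67 with 1 section left out) and with count splitting (0.29), and turned to -0.0904 at resolution 0.8. Cacna1i there no longer passed under DESeq2 (-1.57), without the replicate block (-1.57) or with any section left out (-2.14 to -0.93). Other turns were Cacna1g in region 6 with count splitting (-0.14) and in region 8 without section 2 (-0.0560 to 0.40 with 1 section left out). The fit without the replicate block ended no other call apart from those of Cacna1h in region 2 and Cacna1i in regions 6 and 8. Thinning moved the share of neurons with Cacna1g from 75.9% to 54.7% and with Cacna1i from 4.27% to 1.79%. Neurons with both Cacna1g and Cacna1h were 0.162% thinned to 5000 counts, 0.482% thinned to 10000 and 1.41% as deposited. For Cacna1g and Cacna1i these shares were 0.826%, 1.68% and 2.78%, and for Cacna1h and Cacna1i 0.0323%, 0.165% and 0.178%. The thinned shares leave out shallower neurons, which in animal 2 were 59 at 5000 counts and 190 at 10000. Counts of all genes called moved more: 1420 in cluster 2 became 2278 under DESeq2 and 283 to 3812 with an animal left out, and 1586 in cluster 4 became 2612 and 574 to 3617. In subregion 4, 944 became 518 under DESeq2 and 500 to 633 with a section left out. Groups remade at resolution 0.8 or by count splitting gave no value where they shared under 50% with the first grouping, and the cause of each change was not tested. The reticular region was among these under count splitting (15.5% shared), so its Cacna1i call has no value from that setting. Few counts limit what can be said of Cacna1h in the cells, with 96 counts. The same holds for Cacna1g, Cacna1h and Cacna1i in subregion 4, with 26, 2 and 12 counts in 41 spots.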
